A study of Danio rerio with 40 samples.

Results

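Larvae kept in calcitriol were compared between 6 and 4 days post fertilization (dpf), over all genes. Calcitriol (1α,25-dihydroxyvitamin D3) is the hormone form of vitamin D. The comparison uses 10 of the 40 libraries of the series, chosen by the age and treatment in their labels: 5 of treated larvae at 6 dpf and 5 of treated larvae at 4 dpf. The animals were zebrafish of the Segrest wild-type strain, without any transgene or mutation named in the labels. They received 300 pM calcitriol in ethanol from 24 h after fertilization on, in medium that was renewed every 24 h. All groups, controls too, also carried 0.003% phenylthiourea, which blocks pigment formation, and the vehicle groups received the same volume of ethanol. Each set for RNA held 25 to 30 whole animals, so a library averages over every tissue of many larvae. Vehicle larvae at 6 and 4 dpf, 5 libraries each, show the same ages without added hormone. A further set-up in the labels, a 24 h exposure of 6 dpf larvae, is tied to none of the libraries, and it is unclear whether any 6 dpf library belongs to it.

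Between these ages a zebrafish larva uses up its yolk and turns to its own digestive organs, and cell division slows as tissues mature. Calcitriol acts through the vitamin D receptor, a nuclear receptor that pairs with a retinoid X receptor on DNA, and it induces cyp24a1, the enzyme that inactivates the hormone. In fish as in mammals the hormone is best known for its part in calcium and phosphate balance. Zebrafish carry a pair of receptor genes, vdra and vdrb.

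Poly-A RNA was sequenced, and the deposited read counts per gene covered 14267 genes, of which 13475 had enough counts to be tested. Total counts were between 67235165 and 188463688 in the treated libraries. The lowest total at each age belonged to replicate 5, with 67235165 counts at 6 dpf and 71043189 counts at 4 dpf. These are called the shallow libraries, together with replicate 1 of the vehicle groups (67381758 counts at 6 dpf and 73681035 at 4 dpf). Levels are CPM, the counts of a gene over the library total on a fixed scale, corrected by trimmed mean of M values (TMM) factors for library composition. After a log2 fold change, ± is the SE. After a CPM level, ± is the SD (n = 5 libraries). P-values are from edgeR's quasi-likelihood test with Benjamini-Hochberg adjustment over all genes tested, and a gene was called at an adjusted p below 0.05. They measure only the spread between these libraries, because the labels do not say whether the sets of a group came from separate clutches.

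One 6 dpf library stood apart. For each library, genes were taken that differed at least 2-fold between the ages in a fit without it, and its median place was read between the 4 dpf mean (0%) and the 6 dpf mean (100%) of the other libraries. Replicates 1 to 4 of treated 6 dpf larvae lay at 104%, 95.1%, 116% and 112%, and replicate 5 at 52.6%. It lay lower on falling genes, at 38.2%, than on rising genes, at 62.6%. The treated 4 dpf libraries lay at 14.9%, 2.12%, 18.6%, 13.3% and -15.3%. In vehicle larvae the shallow library lay at 69.6% at 6 dpf and at -28.2% at 4 dpf. Replicate 5 has the lowest depth at both ages, and the part of depth in these positions was not tested. Libraries 1 and 2 were also close to each other, as were 3 and 4: the chi-square per degree of freedom over genes was 54.5 and 89.5 for these pairs at 6 dpf, against 130 to 413 for the other pairs. At 4 dpf the same pairs gave 43.6 and 28.8, against 130 to 304 for the others. All 5 were kept as replicates, and these distances do not show whether they came from separate sources. In the positions above, libraries 1 to 4 were each placed against libraries that held their close partner, while replicate 5 had none. The part of this in the positions was not tested. Genes named below from a gene list were chosen after their values were seen unless the naming rule took them.

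**Figure D1:**
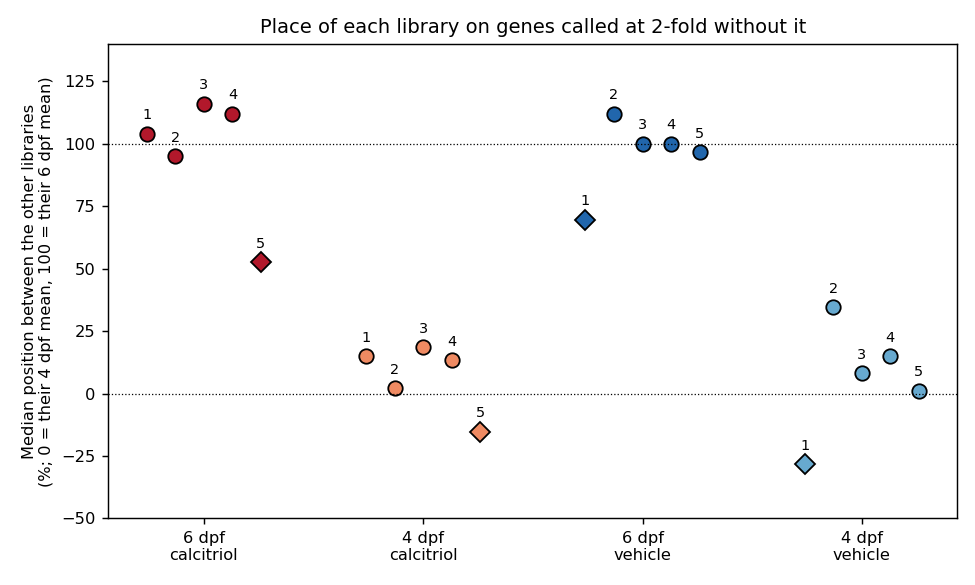
Place of each library between the ages (y axis, %, with 0 the 4 dpf mean and 100 the 6 dpf mean of the other libraries of that treatment), for treated and vehicle larvae at 6 and 4 dpf (x axis). Numbers are replicates and diamonds mark the shallow libraries. Replicate 5 of treated 6 dpf larvae lies at 52.6%, the other 4 between 95.1% and 116%.

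Over all genes, 5021 of 13475 were called (37.3%), 2562 higher at 6 dpf (19%) and 2459 lower (18.2%). With a change of at least 2-fold, 570 genes were higher (4.23%) and 286 lower (2.12%). The 5 libraries of 6 dpf lay above all 5 of 4 dpf for 1610 genes (11.9%) and below all 5 for 1565 genes (11.6%). The median log2 change over all genes was -0.001. Counts of treated changes in the gene lists below are to be read against the 19% of all genes higher and 18.2% lower. Without the shallow libraries 5800 genes were called, 2857 higher (21.2%) and 2943 lower (21.8%), and 4721 of the 5021 were among them. With libraries 1 and 2, and 3 and 4, each summed into 1 unit, 1460 genes were called, 1458 of them among the 5021, so the count depends on how libraries are taken as units. Summing leaves fewer units and also gives replicate 5 a larger share of each group, and these were not tested apart. With no scaling factors 38.8% of called genes were higher, against 51% with TMM factors.

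Several genes of the vitamin D pathway rose. The gene cyp24a1 (chromosome 6) had 1292, 1095, 1659.8, 1689 and 634 CPM in treated 6 dpf libraries 1 to 5, against 207, 277, 337, 341 and 71.6 CPM in treated 4 dpf libraries 1 to 5. Every 6 dpf library lay above every 4 dpf library, and replicate 5 was the lowest at both ages. The log2 fold change was 2.37 ± 0.37, or 5.16-fold (adjusted p = 0.000506), and 2.30 without the shallow libraries. Its level was 162 ± 64.9 CPM in vehicle larvae at 6 dpf and 34.2 ± 11.8 CPM in vehicle larvae at 4 dpf, and every vehicle library lay below every treated library of its age. The increase in vehicle larvae was 2.24 ± 0.31 on the log2 scale, and the difference between the increases was 0.12 ± 0.51 (adjusted p = 1).

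Both receptor genes were higher at 6 dpf. For vdrb (chromosome 6) the treated 6 dpf libraries had 34.7, 32.9, 31.6, 29.9 and 17.9 CPM, against 17.4, 12, 11.1, 12.6 and 12.5 CPM at 4 dpf, a log2 change of 1.16 ± 0.17 (adjusted p = 0.00038). For vdra (chromosome 23) they had 18.8, 17.7, 19.3, 22.3 and 9.13 CPM, against 8.67, 5.41, 13, 13.4 and 6.53 CPM at 4 dpf, where the groups overlapped because replicate 5 lay within the 4 dpf range, and the change was 0.90 ± 0.26 (adjusted p = 0.0185). Of 21 vitamin D signalling and metabolism genes tested, 9 rose and 0 fell, with a median log2 change of 0.32. That is 42.9% passing, near the 37.3% of all genes, of which 19% rose and 18.2% fell. With no scaling factors 6 of them rose, and with the closest libraries summed, 2. In vehicle larvae 11 of the 21 rose and 0 fell, with a median of 0.33, where 18.1% of all genes rose and 17.8% fell. In that list pth1b, a parathyroid hormone gene with under 2 CPM, rose by 2.54 ± 0.63, and rxrbb, a retinoid X receptor, by 0.32 ± 0.09. The epithelial calcium channel gene trpv6, known as a target of the hormone, averaged 6.46 ± 0.626 CPM at 6 dpf and 6.09 ± 0.9 CPM at 4 dpf (log2 change 0.08 ± 0.13, adjusted p = 0.665).

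Among the largest increases were a gene of protein breakdown and regulators of fuel use. The largest was that of fbxo32 (chromosome 16), known in mammals as atrogin-1, a ubiquitin ligase that rises in wasting muscle. It had 166, 173, 211, 191 and 53.1 CPM in treated 6 dpf libraries, against 4.83, 3, 3.42, 4.64 and 2.91 CPM in treated 4 dpf libraries. That is a log2 change of 5.39 ± 0.35, or 42-fold (adjusted p = 5.08e-06), with no overlap between the ages and replicate 5 well below the other 6 dpf libraries. The kinase gene pdk2 (chromosome 19), which shuts off pyruvate dehydrogenase and so spares glucose, had 762, 836, 671, 645 and 426 CPM at 6 dpf, against 91.9, 66, 53.3, 48.6 and 19.2 CPM at 4 dpf (3.57 ± 0.35, adjusted p = 2.96e-05). The mitochondrial carrier gene ucp1 (chromosome 1), known in mammals as the uncoupling protein of brown fat, had 2103, 2029, 2513, 2396 and 1086 CPM at 6 dpf, against 269, 215, 298, 292 and 84.5 CPM at 4 dpf (3.13 ± 0.32, adjusted p = 3.98e-05). For each of these 3 genes, replicate 5 was the lowest library at both ages, and without the shallow libraries the log2 changes were 5.54, 3.47 and 3.07.

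Other regulators of metabolism and stress, chosen after their values were seen, rose as well. The related carrier ucp3 rose by 2.60 ± 0.33 to 205 ± 49.3 CPM at 6 dpf, against 33.7 ± 13.8 CPM at 4 dpf. The phosphatidate phosphatase gene lpin1 rose by 2.59 ± 0.20, the transcription factor gene klf15 by 1.61 ± 0.15, and the kinase gene ulk1a, which starts autophagy, by 1.82 ± 0.13. The stress regulator sesn1 rose by 1.56 ± 0.13. The genes tsc22d3, fkbp5 and klf9, which glucocorticoids induce in mammals and fish, rose by 1.30 ± 0.12, 1.43 ± 0.28 and 1.97 ± 0.26. Adjusted p for these 8 genes was at most 0.00203.

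The rule for named genes also took tceb3, a subunit gene of the transcription elongation factor elongin, with 60.5 ± 27.6 CPM at 6 dpf and 2.32 ± 0.742 CPM at 4 dpf (4.70 ± 0.38, adjusted p = 1.05e-05). The transcription factor gene nfe2l1, known in mammals as a regulator of proteasome genes, rose by 2.77 ± 0.23 (adjusted p = 1.05e-05), to 85.4 ± 21.4 CPM at 6 dpf, against 12.4 ± 3.51 CPM at 4 dpf. The gene upp2, which encodes a uridine phosphorylase, had 16.2, 15.2, 11.3, 16 and 17.3 CPM in treated 6 dpf libraries, against 2.19, 1.12, 2.81, 2.36 and 0.339 CPM in treated 4 dpf libraries (3.10 ± 0.38, adjusted p = 0.000123). The inducible chaperone gene hsp70l had 11.2, 3.64, 55, 12.5 and 3.77 CPM at 6 dpf, against 1.22, 1.46, 1.99, 2.69 and 3.29 CPM at 4 dpf (3.03 ± 0.68, adjusted p = 0.00443). Its 6 dpf mean rests on replicate 3, without which the log2 change was 1.88, and it belongs to a family of near-identical copies whose reads may be split between genes.

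**Figure D2:**
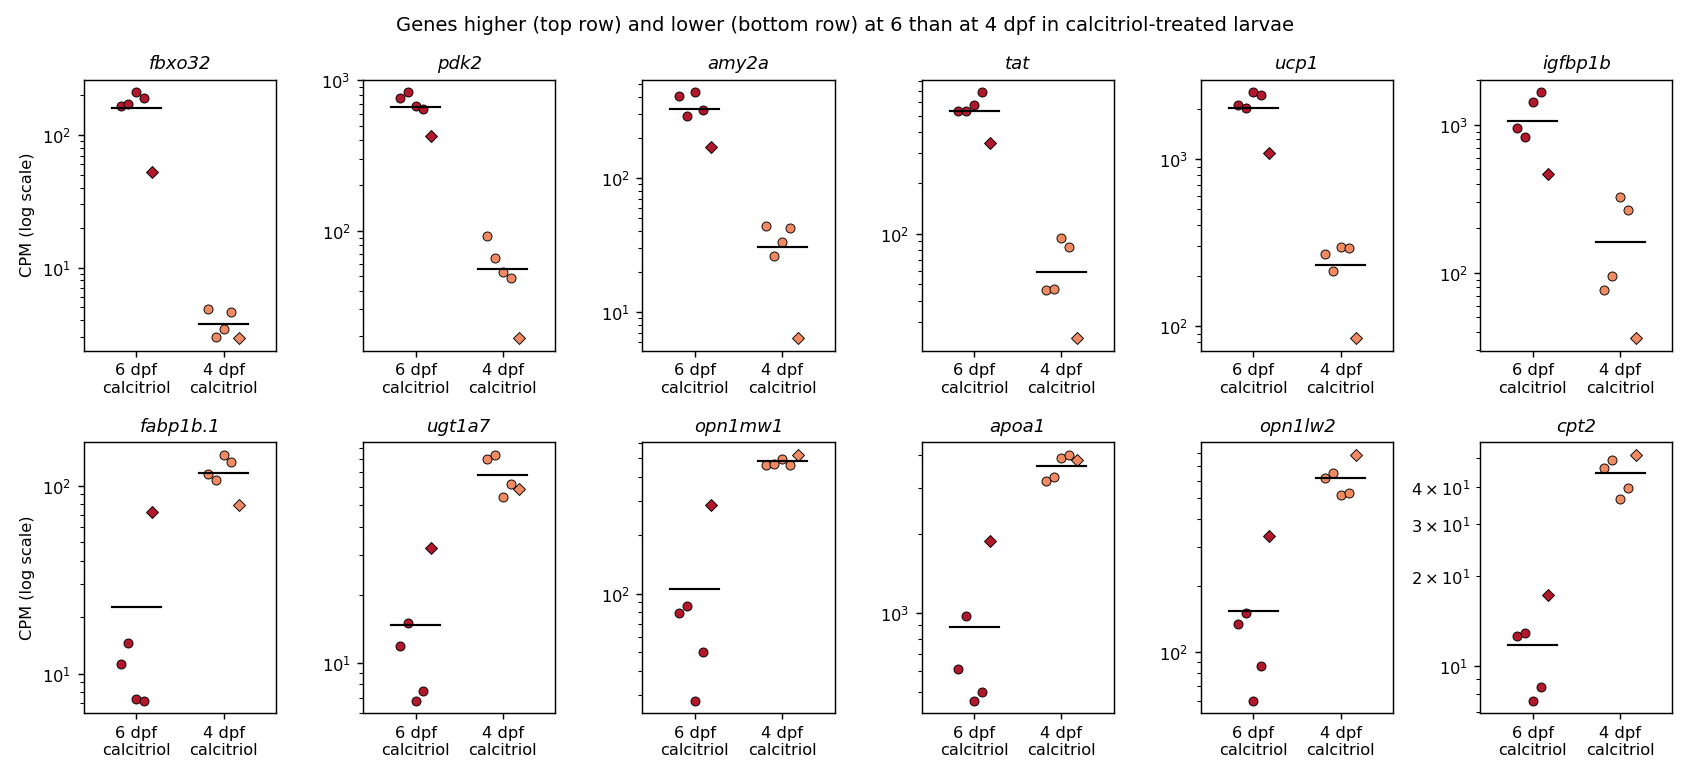
CPM (y axis, log scale) in each treated library at 6 and 4 dpf (x axis) for 6 genes that rose and 6 that fell. Points are replicates 1 to 5 from left to right, diamonds mark replicate 5, the shallow library, and the bar is the mean. In the bottom row replicate 5 lies between the other 6 dpf libraries and the 4 dpf libraries, as for opn1mw1 with 288 CPM.

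The binding protein genes igfbp1b and igfbp1a, whose products hold insulin-like growth factors in the circulation and whose levels rise in fasting mammals, both rose. For igfbp1b (chromosome 2) treated 6 dpf libraries had 946, 831, 1415, 1663 and 464 CPM, against 76.5, 95.2, 326, 268 and 36 CPM in treated 4 dpf libraries (2.74 ± 0.54, adjusted p = 0.00204). All libraries of 6 dpf lay above all of 4 dpf, while 4 dpf libraries 3 and 4 lay well above the other three. The paralog igfbp1a rose by 1.93 ± 0.35. The insulin-like growth factor gene igf2b rose by 1.26 ± 0.21 with overlapping groups, the insulin receptor gene insra by 0.66 ± 0.09, the growth hormone receptor gene ghrb by 1.41 ± 0.22, and zgc:56306, matched to irs2a, an adaptor of the insulin receptor, by 1.73 ± 0.16.

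Insulin, glucagon and somatostatin, hormones of the pancreatic islet, fell. Insulin (ins, chromosome 5) had 3.69, 4.11, 2.98, 2.48 and 5.54 CPM in treated 6 dpf libraries, against 7.97, 8.17, 6.95, 7.16 and 5.64 CPM in treated 4 dpf libraries (-0.94 ± 0.20, adjusted p = 0.00321). The lowest 4 dpf value and the highest 6 dpf value both belonged to replicate 5 and nearly met. Glucagon (gcga) fell by 0.91 ± 0.19 and somatostatin (sst2) by 0.95 ± 0.19 on the log2 scale. The binding protein gene igfbp2a also fell, with 23.3 ± 8.65 CPM at 6 dpf and 56.5 ± 4.53 CPM at 4 dpf (-1.28 ± 0.20). Of 26 genes on the insulin, IGF and glucose hormone list, 11 rose and 6 fell, against 19% and 18.2% of all genes. The remaining decreases were those of igfbp2b and igfbp3, and the share of decreases was not far from that of all genes. In the thyroid and pituitary list 31.8% passed, against 37.3% of all genes. There 5 of 22 rose and 2 fell, namely pomca (-0.40 ± 0.15), the precursor of corticotropin, and prolactin (prl, -1.86 ± 0.29), which had under 3 CPM.

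Digestive enzymes of the exocrine pancreas rose together. Of 22 tested, 18 rose, with a median log2 change of 2.14 over the list, and 1 fell (zgc:66313, an amylase-like gene, -0.84 ± 0.29). Amylase (amy2a, chromosome 2) had 409, 291, 438, 320.2 and 169 CPM in treated 6 dpf libraries, against 43.8, 26, 33.3, 42.4 and 6.33 CPM in treated 4 dpf libraries (3.42 ± 0.43, adjusted p = 0.000144). Carboxypeptidase (cpa1) had 64.1 ± 19.6 CPM at 6 dpf and 8.79 ± 3.69 CPM at 4 dpf (2.86 ± 0.36), and trypsin (try), elastase (ela2l) and chymotrypsin (ctrl) rose by 2.17 ± 0.29, 2.40 ± 0.50 and 2.46 ± 0.30. The summed level of the list was 12670 ± 3416 CPM at 6 dpf, with a range of 7545 to 16590, and 2818 ± 1223 CPM at 4 dpf, with a range of 919.5 to 3861. In whole larvae, a change in the number of cells of a type and a change in RNA per cell cannot be told apart. This holds here and in the tissue lists that follow.

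Liver genes moved both ways. Of 40 genes of amino acid and nucleotide catabolism, 21 rose and 8 fell, a share of decreases near the 18.2% of all genes. Tyrosine aminotransferase (tat, chromosome 18), a classic glucocorticoid target in mammals, had 533, 534, 575, 689 and 344 CPM in treated 6 dpf libraries, against 46.6, 46.8, 93.9, 83.5 and 24 CPM in treated 4 dpf libraries (3.19 ± 0.32, adjusted p = 3.87e-05). Arginase (arg2) rose by 2.94 ± 0.24, tryptophan dioxygenase (tdo2b) by 2.54 ± 0.24 and phenylalanine hydroxylase (pah) by 1.31 ± 0.10. The gluconeogenic gene pck1 rose by 1.72 ± 0.34 to 2142 ± 282 CPM, against 653 ± 347 CPM at 4 dpf, while pc, the carboxylase that feeds gluconeogenesis and lipid synthesis, fell with 37.7 ± 7.67 CPM at 6 dpf and 112 ± 16.1 CPM at 4 dpf (-1.58 ± 0.15).

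Of 43 liver plasma protein genes, 13 rose and 9 fell, against 19% and 18.2% of all genes. Without the shallow libraries 11 rose and 21 fell, against 21.2% and 21.8%. Apolipoprotein A-I (apoa1, chromosome 5), which is abundant in the yolk syncytial layer and carries lipid, had 613, 976, 462, 501 and 1889 CPM in treated 6 dpf libraries, against 3194, 3293, 3921, 4018 and 3825 CPM in treated 4 dpf libraries (-2.03 ± 0.34, adjusted p = 0.000793). Replicate 5 was the highest 6 dpf library and still lay below all 4 dpf libraries, and without the shallow libraries the change was -2.50. The gene zgc:193613, matched to apoa2, fell as well (-1.42 ± 0.24), and transferrin (tfa), the iron carrier, had 266, 215, 104, 103 and 474 CPM at 6 dpf, against 618, 587, 432, 535 and 522 CPM at 4 dpf (-1.21 ± 0.36, adjusted p = 0.0188), with replicate 5 at 6 dpf inside the 4 dpf range. The liver fatty acid binding protein gene fabp10a had 119, 109, 70.8, 80.1 and 254 CPM at 6 dpf, against 91.2, 59.1, 54.5, 54.7 and 45.7 CPM at 4 dpf, and its change was 1.05 ± 0.32 (adjusted p = 0.0216). The groups overlapped, with replicate 5 the highest at 6 dpf. The log2 change was 0.64 without that library and 0.53 without both shallow libraries. The call was lost without treated 4 dpf replicate 5 (adjusted p = 0.0524), without both shallow libraries (adjusted p = 0.0624) and with replicate number as a block (adjusted p = 0.078), with adjusted p between 0.000247 and 0.286 over its alternatives.

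Intestinal genes also moved both ways. Of 38 brush border and enterocyte genes, 12 rose and 7 fell, a share of decreases near the 18.2% of all genes. The median log2 change was 0.20, and -0.01 without the shallow libraries. Among those that rose were the peptide transporter slc15a1b by 1.37 ± 0.24, the amino acid transporter slc6a19b by 1.83 ± 0.26, and the peptidases mep1b and enpep by 2.26 ± 0.49 and 0.68 ± 0.08. The fatty acid binding protein gene fabp1b.1 (chromosome 8), active in yolk syncytial layer and gut, had the largest fall among the 12 decreases named for their size. It had 11.3, 14.6, 7.3, 7.15 and 72.3 CPM in treated 6 dpf libraries, against 116, 108, 146, 134 and 78.8 CPM in treated 4 dpf libraries (-2.37 ± 0.59, adjusted p = 0.00782). Replicate 5 at 6 dpf nearly reached the lowest 4 dpf library. Without the shallow libraries the log2 change was -3.65. The microvillus gene vil1l fell by 1.05 ± 0.20, and agr2, a disulfide isomerase of mucus-secreting cells, had 9.49 ± 2.44 CPM at 6 dpf and 34.7 ± 10.3 CPM at 4 dpf (-1.88 ± 0.24).

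The ugt1a genes of chromosome 9, which encode enzymes that couple glucuronic acid to bilirubin, steroids and drugs, made up 6 of the 12 named decreases. Genes of this cluster share exons, so reads cannot be assigned with certainty to single members and they are read here as 1 signal. In ugt1a7 the treated 6 dpf libraries had 11.8, 15, 6.75, 7.49 and 32.3 CPM, against 80.4, 83.7, 54.4, 62.2 and 58.9 CPM in treated 4 dpf libraries (-2.22 ± 0.38, adjusted p = 0.000852). In ugt1a1, ugt1a2, ugt1a4, ugt1a5 and ugt1a6 the log2 change was between -1.96 and -1.88. Of 52 cytochrome P450 genes, which act in the same metabolism, 19 rose and 12 fell, against 19% and 18.2% of all genes. Their log2 changes were between -3.44 and 3.33, the highest being that of cyp2k6 (3.33 ± 0.35).

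In the fatty acid and cholesterol lists more genes fell than rose. In the fatty acid list 6 of 34 genes rose, a share near the 19% of all genes, and 15 fell, against 18.2%. The summed level of that list, which includes ucp1, was higher, with 3385 ± 519.5 CPM at 6 dpf and 1939 ± 92.38 CPM at 4 dpf. Most of the 6 dpf sum was ucp1 (values above). The mean of ucp1 increased by more CPM than the sum did, so the rest of the list together did not rise. Among genes for making fatty acids, scd and srebf1 rose by 1.36 and 1.12 on the log2 scale, and elovl2 changed by -1.24. The carnitine palmitoyltransferase gene cpt2 (chromosome 8), which delivers fatty acids to mitochondrial oxidation, had 12.6, 12.9, 7.6, 8.48 and 17.3 CPM in treated 6 dpf libraries, against 46.3, 49.1, 36.4, 39.5 and 51.2 CPM in treated 4 dpf libraries (-1.93 ± 0.21, adjusted p = 6.54e-05). The groups did not overlap. The carnitine carrier slc25a20 and the oxidation enzymes hadha, acads and acaa1 changed by -1.10 ± 0.12, -1.20 ± 0.21, -1.07 ± 0.21 and -1.04 ± 0.18. The nuclear receptor gene pparaa, which drives such genes in mammals, rose by 0.97 ± 0.13. In cholesterol synthesis 14 of 25 genes fell and 1 rose (ldlr, the lipoprotein receptor, 0.59 ± 0.21), with a median of -0.50. There hmgcs1, the step before the rate-limiting enzyme, changed by -1.27 ± 0.10, lss by -1.84 ± 0.19 and cyp51 by -1.45 ± 0.15. Of 19 yolk and lipoprotein genes, 8 rose (against 19% of all genes), with lpl (1.58 ± 0.14) and lipc (1.84 ± 0.20), the lipases of blood lipoproteins, and 5 fell (against 18.2%). These were apoa1 and zgc:193613 (above), zgc:112992, matched to apoa4a (-1.92 ± 0.61), zgc:110064, matched to apoea (-1.69 ± 0.43), and the yolk protein gene vtg7 (-2.58 ± 0.45), which averaged under 1 CPM at both ages.

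In the eye, 4 of 7 cone opsin genes tested fell and 1 rose, while most lens genes rose. The green-sensitive cone opsin gene opn1mw1 (chromosome 6) had 79, 86.2, 27.9, 50 and 288 CPM in treated 6 dpf libraries, against 457, 463, 495, 461 and 519 CPM in treated 4 dpf libraries (-2.17 ± 0.49, adjusted p = 0.00448). Replicate 5 lay far above the other 6 dpf libraries and below all 4 dpf libraries. The red-sensitive opn1lw2 (chromosome 11) had 134, 151, 59.8, 86.6 and 337 CPM at 6 dpf, against 617, 647, 518, 527 and 787 CPM at 4 dpf (-2.01 ± 0.38). The ultraviolet opsin opn1sw1 had 683, 796, 281, 418 and 1256 CPM at 6 dpf, against 1884, 1747, 1632, 1589 and 1912 CPM at 4 dpf (-1.35 ± 0.31), and the blue opsin opn1sw2 changed by -1.39 ± 0.35. In all 4 genes replicate 3 was the lowest 6 dpf library and replicate 5 the highest, and the ages did not overlap. Without the shallow libraries the log2 change was -2.95 for opn1mw1, -2.43 for opn1lw2 and -1.66 for opn1sw1.

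Not every photoreceptor gene was lower. Another green opsin, opn1mw2, rose with overlapping groups, and had 5.05 ± 1.35 CPM at 6 dpf and 3.23 ± 0.409 CPM at 4 dpf (0.64 ± 0.18, adjusted p = 0.0143). The other two did not pass the test: the red opsin opn1lw1, with 0.976 ± 0.923 CPM at 6 dpf and 2.29 ± 1.31 CPM at 4 dpf, changed by a log2 value of -1.29 ± 0.52 (edgeR adjusted p = 0.0678, and 4.23e-05 to 0.43 over its alternatives), and the green opsin opn1mw3 by -1.18 ± 0.90 (adjusted p = 0.329). Opsin genes of one colour class are close copies, and reads may be split between them. The cone phosphodiesterase subunit pde6h rose by 1.28 ± 0.20 and the rod subunit pde6a by 0.74 ± 0.14, while the cone G protein subunit gnb3b changed by -0.97 ± 0.18. Over 45 phototransduction genes, 13 rose and 11 fell, against 19% and 18.2% of all genes. Their median of 0.03 turned to -0.07 without the shallow libraries and to -0.04 with no scaling factors. In the pigment epithelium and retinoid list 8 of 30 rose and 7 fell, against the same shares. Without the shallow libraries 11 fell there, against 21.8% of all genes. Its gene rpe65a, the isomerase that regenerates the visual chromophore, had 144, 144, 155, 132 and 228 CPM at 6 dpf, against 299, 285, 270.3, 252 and 271 CPM at 4 dpf (-0.78 ± 0.14).

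Of 48 lens genes, 38 rose and 0 fell, with a median of 0.81. The α-crystallin gene cryaa rose by 1.33 ± 0.13 to 79.4 ± 11.9 CPM at 6 dpf, against 31.6 ± 5.69 CPM at 4 dpf. The γM-crystallins crygm1, crygm2b and crygm2c rose by 4.69 ± 0.37, 2.90 ± 0.21 and 3.07 ± 0.26. Each had under 2 CPM in every 4 dpf library, and as a family of close copies they are uncertain one by one.

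Genes of cell division fell. Of 50 DNA replication genes, 43 fell and 0 rose, with a median of -0.72, and of 52 mitosis genes, 45 fell and 0 rose, with a median of -0.88. The sliding clamp gene pcna averaged 135 ± 43 CPM at 6 dpf and 246 ± 20.3 CPM at 4 dpf (-0.87 ± 0.18). The helicase genes mcm2 and mcm5 changed by -0.81 ± 0.10 and -0.92 ± 0.13, the cyclin gene ccnb1 by -1.43 ± 0.22, and the mitotic kinase genes aurka and aurkb by -1.27 ± 0.19 and -1.03 ± 0.14. Hox genes, which set position along the body axis, fell in 25 of 47 and rose in 1 (hoxa11a, 0.70 ± 0.24), with hoxb5a at -0.79 ± 0.09. Of 67 neural progenitor genes 10 fell and 2 rose (dlc and stmn1b, 7 with replicate number as a block). That is 17.9% passing, against 37.3% of all genes, so decreases were not more frequent there than over all genes. Of 62 mature neuron genes 11 rose and 11 fell, shares near those of all genes (19% and 18.2%). In the myelin and glia list 8 of 22 rose and 1 fell (slc1a2b, -0.27 ± 0.08), with the myelin genes plp1b and mpz at 0.93 ± 0.13 and 0.88 ± 0.15. That is 40.9% passing, near the 37.3% of all genes, of which 19% rose and 18.2% fell.

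Ribosome assembly went the other way. Of 65 ribosome biogenesis genes, 42 rose and 0 fell, with a median of 0.42. The RNA helicase gene ddx21 had 914, 737, 1156, 1003 and 661 CPM in treated 6 dpf libraries, against 273, 255, 392, 352 and 219.6 CPM in treated 4 dpf libraries (1.58 ± 0.18, adjusted p = 7.08e-05), and gtpbp4 rose by 1.23 ± 0.11. The ribosomal proteins themselves changed less: all 83 had a positive log2 change, between 0.01 and 0.38, but only 16 rose past the test (19.3%, near the 19% of all genes). That count was 30 with replicate number as a block and 4 with no scaling factors. Respiratory chain genes fell in 42 of 73, with a median of -0.36, and rose in 2, namely zgc:103594 and zgc:153177, matched to subunits known in mammals as muscle-type, cox6a2 (0.79 ± 0.18) and cox7a1 (0.62 ± 0.11). Proteasome subunits fell in 21 of 50 and rose in 2, among them psmb8, an immune-type subunit (1.54 ± 0.37).

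Skeletal matrix genes fell. In cartilage 15 of 23 fell and 0 rose, with a median of -0.82: col2a1a, the main cartilage collagen, averaged 1576 ± 381 CPM at 6 dpf and 3511 ± 1079 CPM at 4 dpf (-1.15 ± 0.20), and matn1 changed by -1.42 ± 0.31. Of 32 collagen and fibre genes of skin, tendon and basement membrane, 20 fell and 3 rose, the proteases mmp9 (1.30 ± 0.32) and mmp13a (0.78 ± 0.18) and the inhibitor timp2a (0.39 ± 0.10). In the bone list 10 of 27 fell and 3 rose. There col1a1a and the osteoblast factor sp7 changed by -0.68 ± 0.10 and -1.06 ± 0.18, while alp, alkaline phosphatase, rose by 0.26 ± 0.09, zgc:111821, matched to the bone phosphoprotein gene spp1, rose by 1.71 ± 0.20 and mgp, an inhibitor of calcification, by 1.56 ± 0.29 with overlapping groups.

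Skin, ionocyte and muscle lists are read against 19% of all genes that rose and 18.2% that fell. Of 30 keratin and periderm genes 13 rose, with krt15 and krt8 at 0.98 ± 0.13 and 0.51 ± 0.08, and 7 fell, with krt4 and cyt1l at -0.42 ± 0.08 and -1.30 ± 0.27. Ionocyte genes rose in 9 of 28 and fell in 2, so that 39.3% passed, near the 37.3% of all genes, with the ammonia channel rhcgl1 at 1.87 ± 0.33. Of 61 muscle genes 11 rose (17 with replicate number as a block) and 18 fell, a share of increases near that of all genes. The calcium pump gene atp2a1l rose by 1.47 ± 0.13, while the related atp2a1 changed by -0.31. The skeletal actin gene acta1b had 1236 ± 355 CPM at 6 dpf and 3545 ± 275 CPM at 4 dpf (-1.52 ± 0.18). Myogenic factors were opposed, as myog changed by -0.79 ± 0.16 and myf6 by 1.28. Of 28 globin and red cell genes 2 rose and 5 fell, the embryonic globin hbbe2 by -0.89 ± 0.12. That share of decreases was near the 18.2% of all genes.

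Clock, immune and stress genes shifted as well, read against 19% of all genes that rose and 18.2% that fell. In the circadian list 19 of 37 rose and 3 fell, namely cry4 (-0.73 ± 0.10), arntl2 (-0.92 ± 0.14) and arntl1a. The repressors per3 and nr1d1 rose by 1.43 ± 0.25 and 0.97 ± 0.18, and the activator arntl1a fell (-0.58 ± 0.08). The hour of collection is not given in the sources used here. Of 50 immune and acute phase genes 29 rose and 2 fell. There socs3a, a brake on cytokine signals, rose by 2.25 ± 0.28, cebpd by 1.82 ± 0.22, stat1b by 1.93 ± 0.27 and the iron hormone gene hamp1 by 1.97 ± 0.43. The decreases were those of rag2 (-0.52 ± 0.18) and of zgc:194626, matched to the liver peptide gene leap2, which had 0.192, 0.112, 0.0948, 0.0327 and 0.464 CPM in treated 6 dpf libraries, against 1.86, 2.05, 2.42, 2.6 and 2.41 CPM in treated 4 dpf libraries (-3.85 ± 0.47). In the heat shock and unfolded protein list 14 of 56 rose, not far from the share of all genes, and 20 fell. Among those that rose were the stress response genes chac1 at 2.18 ± 0.20, trib3 at 1.51 ± 0.19 and atf3 at 1.41 ± 0.26. Among those that fell were the amino acid response gene asns (-0.61 ± 0.13) and the endoplasmic reticulum chaperones hspa5 at -0.56 ± 0.11, hyou1 at -0.77 ± 0.10 and calrl at -1.14 ± 0.12. Of 24 genes on a low-oxygen list 12 rose and 2 fell, with pfkfb3 at 2.21 ± 0.27. Not all of them are glycolysis genes, and the list's highest log2 change, 2.74, was that of igfbp1b. In the separate glycolysis and glucose transport list 13 of 49 rose, not far from the share of all genes, and 15 fell.

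**Figure D3:**
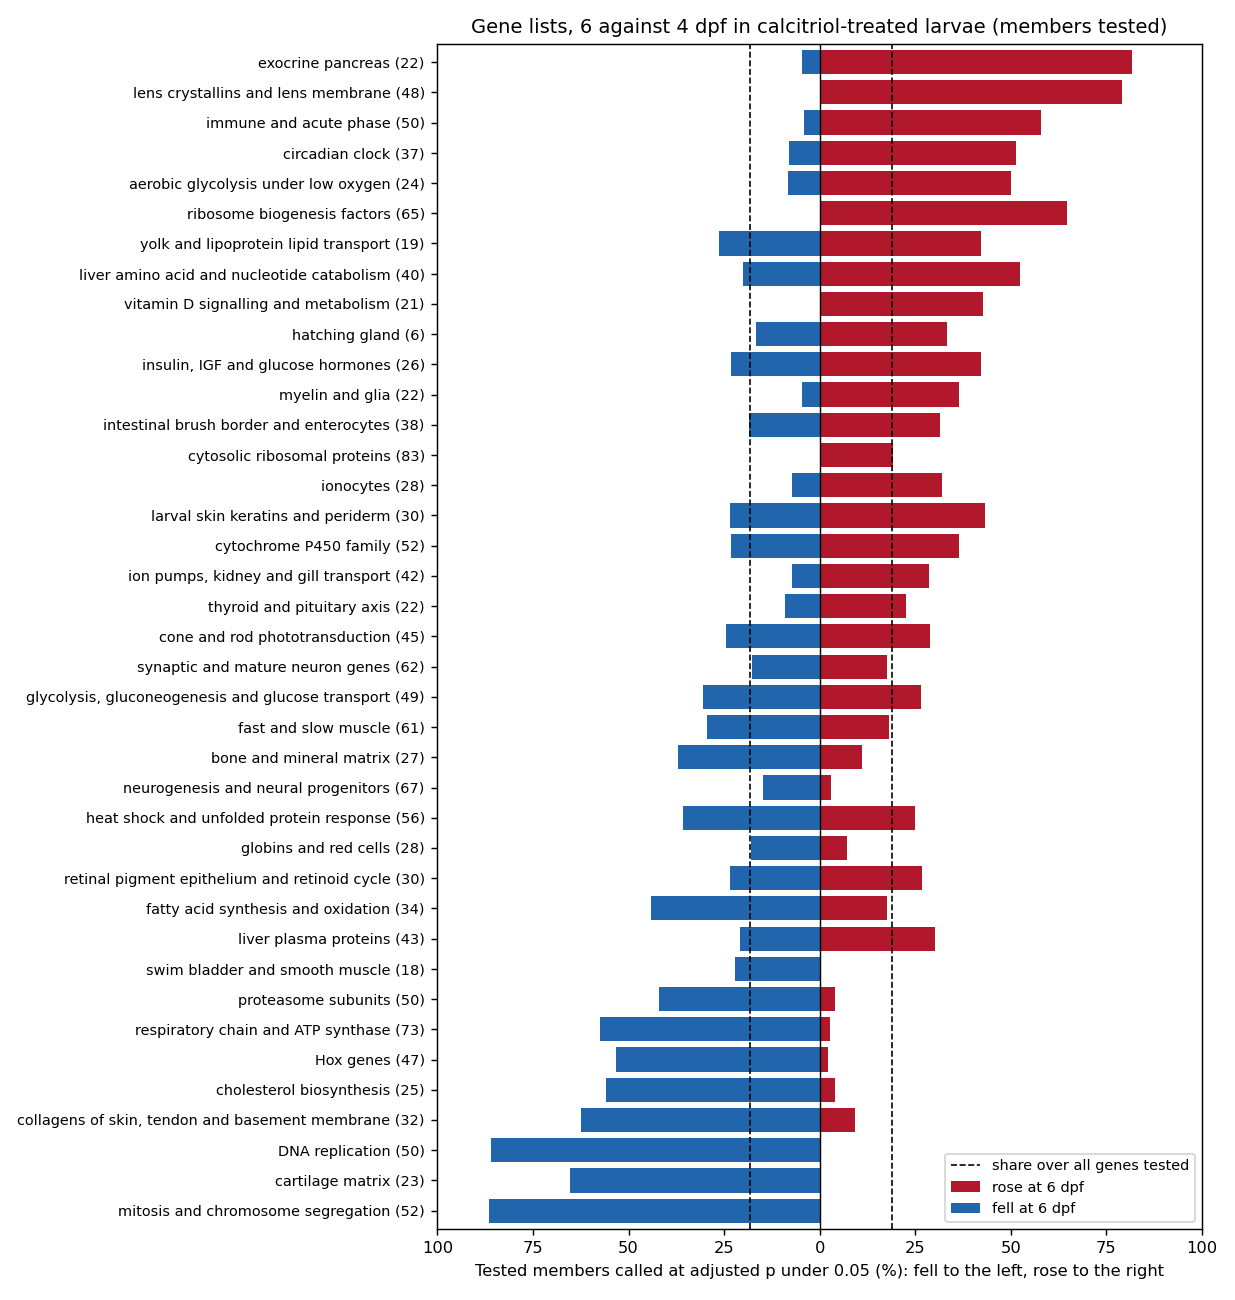
Share of tested members (x axis, %) that rose (right) or fell (left) at 6 against 4 dpf in treated larvae, for each gene list (y axis, members tested in brackets, ordered by median log2 change). The dashed lines are the shares over all genes tested, 19% higher and 18.2% lower. Exocrine pancreas stands at the top and mitosis at the bottom.

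Summing the closest libraries into 1 unit left fewer calls in most lists. Then 17 of 22 pancreas genes, 35 of 50 lens genes and 20 of 65 ribosome biogenesis genes rose, and 8 of 50 replication, 14 of 52 mitosis, 7 of 23 cartilage, 4 of 73 respiratory chain, 2 of 50 proteasome and 6 of 47 Hox genes fell, while the median of each of these lists kept its sign. Over all 13606 genes tested in that fit, 896 were higher and 564 lower. The shares of proteasome and respiratory chain decreases were thus near that of all genes. The calls lost in that fit included those of vdra, pth1b, rxrbb, hsp70l, ins, sst2, fabp1b.1, vil1l, mep1b, fabp10a, tfa, hamp1, ces3, ela2l, acads, amt, pygl, opn1mw1, opn1mw2, opn1sw1, opn1sw2, gnb3b, rpe65a, pcna, myog, cldn5b, baxa, brf1a, ugt1a1, ugt1a2, ugt1a4, ugt1a5 and ugt1a6.

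In the lists that moved in only 1 direction, the count on the other side stayed at 0 at an unadjusted p below 0.05 in edgeR and with DESeq2, except for ribosome biogenesis, where 1 gene was lower by either. The smooth muscle list, with 4 of 18 lower and 0 higher, had 2 higher by either. There 22.2% passed, all lower, against 37.3% of all genes passing and 18.2% lower, so decreases were little more frequent than over all genes. Without the shallow libraries, 2 lens and 2 ribosome biogenesis genes fell.

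Development without added hormone was read from the vehicle libraries, which share no library with the treated ones. There 4838 of 13466 genes were called (35.9%), 2438 higher (18.1%) and 2400 lower (17.8%), and without the shallow libraries 3038 higher (22.5%) and 2997 lower (22.2%). Across the 13432 genes tested in both, Pearson's r of the log2 changes was 0.853 and Spearman's rho 0.844, which is a description over genes that are not independent. Of genes called in treated larvae, 70.3% were also called in vehicle larvae, and of those called in vehicle larvae, 72.9% were also called in treated larvae. Of the 3524 called in both, 9 had opposite signs. The vehicle count depends on scaling: with no scaling factors the median over all genes was -0.23 in vehicle larvae and -0.08 in treated larvae, and 19.4% of the vehicle calls were higher, against 50.4% with TMM factors.

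Several of these groups had changes of the same sign without added hormone. In vehicle larvae 17 of 22 pancreas genes, 38 of 47 lens genes and 24 of 40 liver catabolism genes rose, and 35 of 50 replication genes, 46 of 52 mitosis genes and 13 of 23 cartilage genes fell. Other lists leaned the other way. Of 43 liver plasma protein genes 13 rose and 9 fell in treated larvae (median log2 change -0.21), against 19 and 3 in vehicle larvae (0.43). Of 49 glycolysis and glucose transport genes 13 rose and 15 fell in treated larvae (-0.03), against 22 and 8 in vehicle larvae (0.17). Of 61 muscle genes 11 rose and 18 fell in treated larvae (-0.06), against 20 and 10 in vehicle larvae (0.16). The difference of changes, tested with edgeR over all libraries, was called for 0, 0 and 2 genes of these 3 lists, with 17, 13 and 18 at an unadjusted p below 0.05, and DESeq2 called 3, 4 and 5. With no scaling factors edgeR called 0 in each list, with 10, 7 and 10 at an unadjusted p below 0.05. The median difference was then -0.34, -0.01 and -0.06, against -0.49, -0.17 and -0.21 with TMM factors. For glycolysis and muscle the difference between treatments thus depended on the scaling. The change of fbxo32 was 5.39 ± 0.35 in treated and 4.07 ± 0.35 in vehicle larvae, that of ucp1 3.13 ± 0.32 and 3.16 ± 0.38, and that of tat 3.19 ± 0.32 and 3.05 ± 0.31. The level of tat was 535 ± 124 CPM in treated 6 dpf larvae and 58.9 ± 28.9 CPM in treated 4 dpf larvae, against 168 ± 65.6 CPM in vehicle 6 dpf larvae and 20.2 ± 7.08 CPM in vehicle 4 dpf larvae. That of igfbp1b was 1064 ± 477 CPM and 160.3 ± 128 CPM in treated larvae at 6 and 4 dpf, against 145 ± 37.1 CPM and 39.4 ± 21.4 CPM in vehicle larvae. Levels at 1 age were not tested between treatments here.

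**Figure D4:**
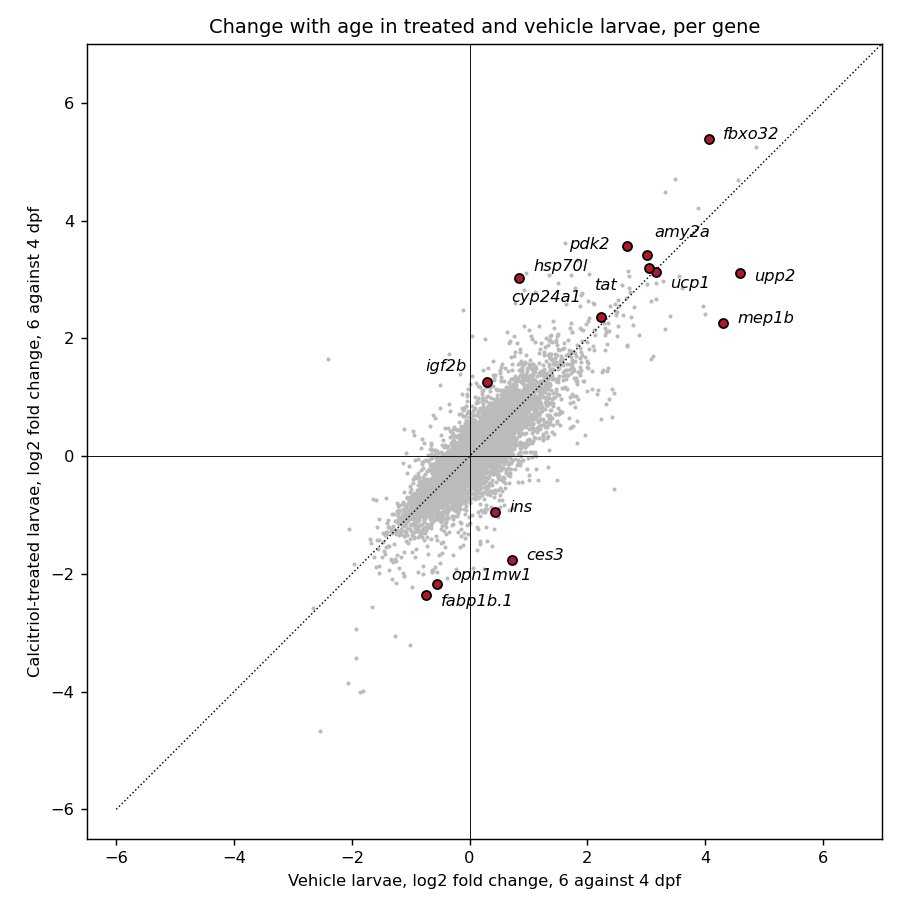
Log2 fold change between 6 and 4 dpf in treated larvae (y axis) and in vehicle larvae (x axis), 1 grey point for each of 13432 genes, with the line of equal change dotted and 14 genes marked in red. Most points follow the line, while ins and ces3 lie below 0 in treated and above 0 in vehicle larvae.

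Whether a change with age differed between treated and vehicle larvae was tested gene by gene as the difference of the changes, over all 20 libraries of these ages. Of 13564 genes, 5 were called (0.0369%), 1 with a positive (0.00737%) and 4 with a negative difference (0.0295%), and 1030 had an unadjusted p below 0.05. Insulin fell in treated larvae and rose in vehicle larvae: ins had 3.69, 4.11, 2.98, 2.48 and 5.54 CPM and 7.97, 8.17, 6.95, 7.16 and 5.64 CPM in treated libraries at 6 and 4 dpf, against 11, 12.7, 12.6, 13.4 and 13.2 CPM and 8.12, 10.7, 10.8, 8.24 and 8.81 CPM in vehicle libraries at 6 and 4 dpf. The difference of its log2 changes was -1.38 ± 0.23 (adjusted p = 0.0278). All treated 6 dpf libraries lay below all vehicle 6 dpf libraries.

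The gene stc1l, a homologue of stanniocalcin, a hormone that lowers calcium uptake in fish, had 8.59, 9.75, 9.2, 7.17 and 10.7 CPM in treated 6 dpf and 11, 9.94, 9.05, 8.87 and 9.75 CPM in treated 4 dpf libraries, against 13.3, 14.9, 17.7, 16.1 and 14.9 CPM in vehicle 6 dpf and 7.4, 9.95, 8.13, 9.12 and 8.01 CPM in vehicle 4 dpf libraries. Its log2 change was -0.10 ± 0.12 in treated larvae (adjusted p = 0.542) and 0.85 ± 0.11 in vehicle larvae (adjusted p = 0.000168), and the difference was -0.96 ± 0.16 (adjusted p = 0.0278). The muscle creatine kinase genes ckma and ckmb, which buffer ATP in contraction, had log2 changes of 0.16 ± 0.06 and -0.05 ± 0.07 in treated larvae, neither called, and 0.58 ± 0.05 and 0.43 ± 0.05 in vehicle larvae, where both rose, with differences of -0.44 ± 0.07 and -0.49 ± 0.08 (adjusted p = 0.0278 for both). With replicate number as a block the treated change of ckma passed the test (adjusted p = 0.0484, range over its alternatives 0.0171 to 1).

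The tight junction gene cldn5b, a component of barriers in brain and vessels, had 22.9, 27.6, 25, 25.5 and 17.9 CPM in treated 6 dpf and 18.8, 21, 18, 17.9 and 16.3 CPM in treated 4 dpf libraries, against 10.7, 9.64, 12.4, 12.2 and 11.6 CPM in vehicle 6 dpf and 18.2, 15.9, 15.1, 14.3 and 15.4 CPM in vehicle 4 dpf libraries. It rose in treated larvae (0.37 ± 0.12, adjusted p = 0.0268), with replicate 5 inside the 4 dpf range, and fell in vehicle larvae (-0.48 ± 0.10, adjusted p = 0.00266). Its difference was 0.84 ± 0.15 (adjusted p = 0.0475). The treated call was lost without any 1 of treated 6 dpf replicates 2, 3 and 4 or treated 4 dpf replicates 3, 4 and 5, with adjusted p between 0.000892 and 1 over its alternatives.

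These 5 calls sit near the threshold. In fits that left out 1 library, 10 of 20 called no gene, namely those without treated 6 dpf replicate 1 or 4, treated 4 dpf replicate 1 or 5, vehicle 6 dpf replicate 2, 3, 4 or 5, or vehicle 4 dpf replicate 3 or 5, with 785 to 1066 genes at an unadjusted p below 0.05 in them. The count was 283 without treated 6 dpf replicate 5, and 1 to 7 in the other 9 fits. DESeq2 called 107 genes. With no scaling factors 8 genes were called, all with a positive difference, and only 1 of these 5 was among them.

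Without the shallow libraries 339 genes were called, 66 with a positive (0.486%) and 273 with a negative difference (2.01%), the 5 above among them. The genes named from that fit were chosen after its values were seen. The cone opsin opn1mw1 had 522, 319, 337, 363 and 374 CPM in vehicle 6 dpf and 564, 541, 519, 556 and 636 CPM in vehicle 4 dpf libraries, to be set beside the treated values above. Differences of log2 changes there were -2.28 ± 0.32 for opn1mw1, -1.75 ± 0.31 for opn1sw2, -1.61 ± 0.29 for opn1lw2 and -1.51 ± 0.31 for opn1sw1. With all libraries they were -1.62, -1.33, -1.23 and -1.22, none called. In vehicle larvae opn1sw1 and opn1sw2 had log2 changes of -0.14 ± 0.06 and -0.07 ± 0.06 with all libraries, neither called. By the values above, opn1mw1 was lower on average at 6 than at 4 dpf in vehicle larvae too. For opn1lw2 the difference with all libraries was smaller than the treated decrease, so its vehicle change was negative as well.

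The 10 smallest p-values on the negative side without the shallow libraries also held ces3, a carboxylesterase, with a difference of -3.04 ± 0.41. It had 5.59, 8.11, 2.14, 3.23 and 17.1 CPM in treated 6 dpf and 25, 25.5, 15.5, 23.5 and 31.5 CPM in treated 4 dpf libraries, against 30.9, 43, 46.5, 39.8 and 45.8 CPM in vehicle 6 dpf and 22.5, 28.5, 28.1, 25.1 and 20.4 CPM in vehicle 4 dpf libraries. Others were fabp1b.1 (-2.39 ± 0.29), the water channel gene aqp8a.2 (-1.10 ± 0.12), liver glycogen phosphorylase pygl (-0.98 ± 0.13), igfbp2a (-0.97 ± 0.12), rpe65a (-0.92 ± 0.12), vil1l (-0.74 ± 0.10) and the glycine cleavage gene amt (-0.77 ± 0.10), besides ins and ckmb. On the positive side were fbxo32 (1.42 ± 0.27), ulk1a (0.92 ± 0.13), the transcription factor gene klf11a (1.25 ± 0.22), ndrg1l (0.99 ± 0.17), the RNA polymerase III factor brf1a (0.88 ± 0.17), the Notch ligand dll4 (0.67 ± 0.11), ctdspla (0.61 ± 0.12), the apoptosis gene baxa (0.55 ± 0.09) and klhl24 (0.54 ± 0.10), besides cldn5b. With all libraries edgeR called only ins, ckmb and cldn5b among the genes of this paragraph. There the difference was -2.50 for ces3, -1.64 for fabp1b.1, 1.32 for fbxo32 and 0.95 for ulk1a.

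By list, the negative differences without the shallow libraries counted most among liver plasma proteins (11 of 43), fatty acid metabolism (10 of 34), glycolysis and glucose transport (10 of 49), muscle (10 of 61), intestine (9 of 38), phototransduction (9 of 45), yolk and lipoproteins (7 of 20) and pigment epithelium (7 of 30), against 2.01% of all genes. With all libraries edgeR called 2 of the muscle genes and 0 in each of the other lists, with 7 to 18 per list at an unadjusted p below 0.05. DESeq2 over all libraries called negative differences for 3, 0, 4, 5, 0, 1, 0 and 3 genes of these lists in the order given. With no scaling factors edgeR over all libraries called 0 in each of these lists, with 6 to 10 per list at an unadjusted p below 0.05. Their median differences then lay between -0.34 (liver plasma proteins) and 0.08 (pigment epithelium). Without the shallow libraries 0 of 50 DNA replication genes were called for a difference, with 0 at an unadjusted p below 0.05. For the lens 0 of 49 were called there, with 15 at an unadjusted p below 0.05, and DESeq2 over all libraries called 0 in both lists. For ribosomal proteins and ribosome biogenesis the counts per treatment were unlike: in treated larvae 16 of 83 ribosomal protein and 42 of 65 biogenesis genes rose, against 73 of 83 and 24 of 65 in vehicle larvae. The difference of changes was called for 0 of the 83 and 0 of the 65 with all libraries, with 25 and 12 at an unadjusted p below 0.05 in edgeR and medians of -0.22 and 0.23. DESeq2 called 0 and 1. With no scaling factors edgeR called 0 and 1, with 0 and 43 at an unadjusted p below 0.05 and medians of -0.07 and 0.39. The counts of these 2 lists are not shown to differ between treatments.

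**Figure D5:**
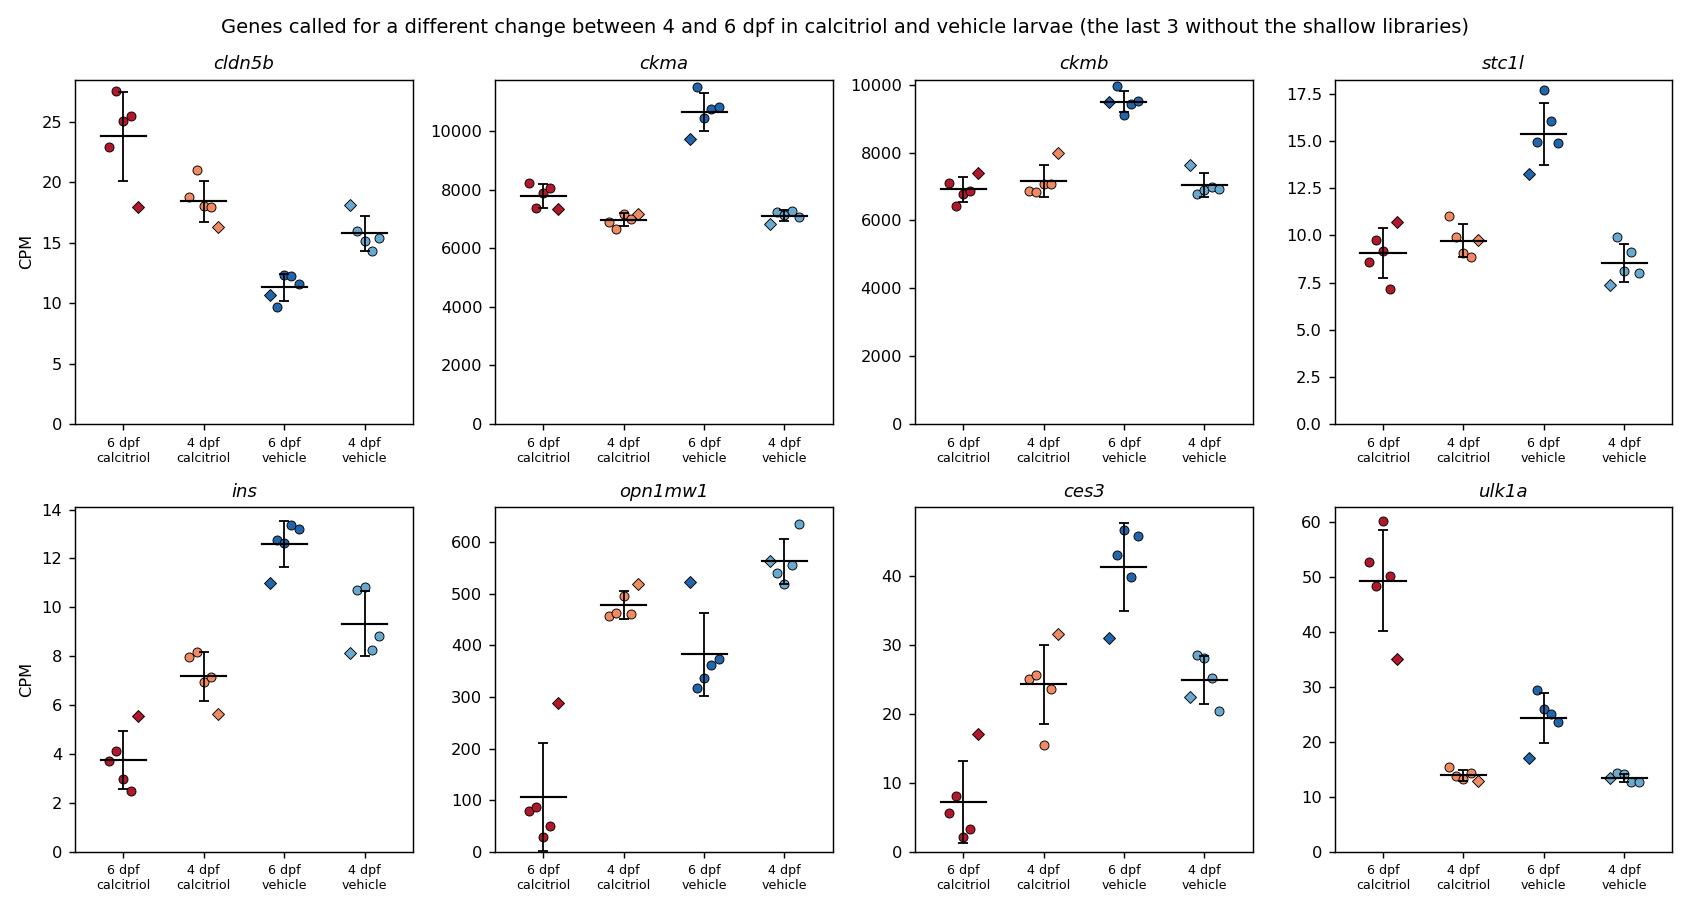
CPM (y axis, from 0) in each library of treated 6 and 4 dpf and vehicle 6 and 4 dpf larvae (x axis) for the 5 genes called for a different change with age, and for opn1mw1, ces3 and ulk1a, called without the shallow libraries. Points are replicates 1 to 5 from left to right, diamonds the shallow libraries, and bars the mean and SD. For ins all treated 6 dpf libraries lie below all other groups.

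Over the treated ages of the series, opn1mw1 was highest at 4 dpf. Its mean was 0.149 ± 0.138 CPM at 2 dpf, 479 ± 27 CPM at 4 dpf, 106 ± 104 CPM at 6 dpf and 27.9 ± 12.2 CPM at 7 dpf. At these 4 ages ins had 6.61 ± 1.21, 7.18 ± 1, 3.76 ± 1.18 and 1.47 ± 0.568 CPM, so that 2 and 4 dpf lay within their spread and 7 dpf was lowest. For fbxo32 the means were 2.51 ± 0.468, 3.76 ± 0.913, 159 ± 61.8 and 222 ± 37.9 CPM, and for cyp24a1 they were 21.2 ± 7.86, 247 ± 112, 1274 ± 437 and 1661 ± 326 CPM. For both genes the step between 4 and 6 dpf was larger than the SD at either age, and 6 and 7 dpf lay within about 1 SD of each other. The chaperone gene hsp70l had 3.66 ± 0.441, 2.13 ± 0.858, 17.2 ± 21.5 and 75.2 ± 41.2 CPM.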

How the data were processed

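Whole-larva RNA of 40 libraries was sequenced as 51-base paired reads, per the labels' protocols. Per the submitters' processing notes, which give no roles, CASAVA 1.4 and HTSeq 0.5.3p3 were used on genome build Zv9. The aligner is not given in the sources used here. The deposited values are the authors' raw read counts per gene, with no normalization. Chromosomes are those in the deposited gene names. The kit does not mark strand, so overlapping and antisense genes cannot be told apart. The counts per exon were not used.

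Genes with too few counts were removed with filterByExpr, libraries were scaled with TMM factors, and edgeR 4.0.16 (R 4.3.3) fitted a robust quasi-likelihood model to 13475 genes of the 10 treated libraries. Vehicle libraries were fitted alone, and the difference of the changes over 20 libraries. P-values were Benjamini-Hochberg adjusted over all genes tested (threshold 0.05), and the SE is the log2 fold change over the root of F. Alternatives were other scalings and filters, DESeq2 1.42.0, limma 3.58.1 voom, a test against 1.5-fold, all 40 libraries, libraries left out, the closest libraries summed, and replicate number as a block. Steps were tested on simulated counts.

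Same-numbered treated libraries deviated together from their group means, with correlations across genes of 0.349, 0.353, 0.181, 0.235 and 0.247 for numbers 1 to 5. Some other numbers matched as well or better: 6 dpf library 2 had 0.4 with 4 dpf library 1, 3 had 0.225 with 4, and 4 had 0.253 with 3, so for 2 of 5 the best match was their own number. The block thus rests on this correlation and not on the labels, and block values are given where they change a call. Named genes were the 12 in each direction with the largest called change, groups that did not overlap, a proper gene symbol and, on average, log2 CPM of 3 or more, plus cyp24a1, vdra and vdrb, for the difference of changes the 10 in each direction with the smallest p among those called, and up to 4 members with the smallest p in each list. Of 39 gene lists, 1560 of 1944 entries matched the table, 294 through a synonym, which is given as "matched to". The comparison, members and lists were chosen with earlier results of these data known.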

Additional observations from a re-analysis of the deposited data

Results flagged for a closer look

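Among 32 named genes, 64 groups of 5 treated libraries were examined for 1 library far from the other 4, and 7 groups (10.9%) had one. Chance gives about 1 in 20 for independent, normally spread values. These groups share the same libraries, and most genes were picked for large changes, so that rate cannot be set against 10.9%. At 6 dpf replicate 5 was the odd library in 4 of them: it had 53.06 CPM of fbxo32 and 17.89 CPM of vdrb, below the rest, and 72.29 CPM of fabp1b.1 and 287.6 CPM of opn1mw1, above the rest. In each of these 4 it lay toward the 4 dpf values. Replicate 3 at 6 dpf had 54.97 CPM of hsp70l, above the rest. At 4 dpf replicate 1 had 17.36 CPM of vdrb and replicate 5 had 7981 CPM of ckmb, both above the rest.

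For 5 genes the change with age differed between treated and vehicle larvae in edgeR's test of the difference itself, adjusted over 13564 genes. The log2 difference was 0.84 for cldn5b, -0.44 for ckma, -0.49 for ckmb, -0.96 for stc1l and -1.38 for ins. In ins the 5 treated 6 dpf libraries lay below and the 5 vehicle 6 dpf libraries above their own 4 dpf mean. All 5 genes were also called without the shallow libraries (339 genes in all) and without treated 6 dpf replicate 5 alone (283). Without treated 4 dpf replicate 5 alone edgeR called 0 genes, with 1066 at an unadjusted p below 0.05, and DESeq2 with all libraries called 107.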

How the results depend on the processing

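The number of genes called in treated larvae (5021) stayed within 1.5 times under RLE, upper quartile and no scaling, both filters, DESeq2, all 40 libraries, without the shallow libraries, with replicate number as a block (6329) and without any 1 library (3954 to 6097). It was 7554 with limma voom, 683 against 1.5-fold and 1460 with the closest libraries summed. For vehicle larvae (4838) these counts were 7423, 517 and 1311, and 3819 to 6001 without any 1 library. The vehicle libraries summed were 2 with 3, and 4 with 5. At 6 dpf vehicle libraries 3 and 4 (chi-square per degree of freedom 57.9) were closer than 4 and 5 (61.8). The count for the difference of changes (5) was 9 with upper quartile factors, 8 with no scaling, 107 with DESeq2, 588 with voom, 21 with all 40 libraries, 132 with the replicate block, 339 without the shallow libraries, 0 to 283 without any 1 library, and 0 both against 1.5-fold (153 at an unadjusted p below 0.05) and with the closest libraries summed (286). With no scaling all 8 had a positive difference, and 1 of the 5 main calls was among them. The fit of all 40 libraries kept 3 of the 5. The cause of these shifts in count was not tested, beyond the stricter null of the 1.5-fold test. The summed fit has fewer units and also gives the unpaired shallow library a larger share of its group, and these were not tested apart. In vehicle larvae same-numbered libraries had correlations of 0.297, 0.344, 0.445, 0.0285 and 0.337, 1 of them under 0.1, and the block called 6379 genes. Among treated changes of named genes, 6047 values under an alternative kept direction and side of the threshold, 241 lost the call and 52 gained one. One changed sign: trpv6, not called, was -0.14 with voom. Beyond the calls named in the report, the block also gained klf11a and opn1lw1. Depth was lowest in the shallow libraries, and no test separates depth from the state of those larvae.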
